A study of Mus musculus with 8 samples.

Results

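The cathepsins are the main proteases of the lysosome, and 10 mouse cathepsin genes (Ctsk, Ctss, Ctsb, Ctsl, Ctsd, Ctsz, Ctsh, Ctsc, Ctso and Ctsw) were followed in 8 mammary tumours. Their probes were found by the RefSeq accession that the array gives each spot, which returned 11 probes, 2 for Ctsd and 1 for each other gene, of 55681 distinct probes and 21368 named genes. The genes were chosen on these same values, because Ctsk read lower on the FGFR1 KO arrays, so the differences between genotypes below are descriptions and carry no test for any of the 11 probes. The study compared tumours of mice labelled FGFR1 KO (genotype K19-tva/fgfr1loxP/loxP, 4 samples) with tumours of control K19-tva mice labelled WT (4 samples). In both groups the strain was FVB, into which the floxed allele, first held in ICR mice, had been crossed back. K19-tva stands for the receptor of avian leukosis viruses, tva, under the keratin 19 promoter, so both genotypes carry that transgene. The ages of the mice, the virus used and the cells that received Cre were not analysed here, and no label states whether each tumour had an animal of its own. Each tumour RNA, read in the red channel, was hybridised on a 2-colour Agilent array beside a human reference RNA in the green channel. Values are log2 ratios, tumour over reference, and since that reference is human, a ratio is compared between arrays of the same probe and not between probes.

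Most of these enzymes are cysteine proteases of the papain type that are made as inactive proenzymes, tagged for the lysosome and activated by cleavage at low pH. Ctsk, Ctss, Ctsb and Ctsl cut within proteins, Ctsz, Ctsh and Ctsc take residues off chain ends, Ctso and Ctsw are less studied cysteine cathepsins, and Ctsd is an aspartic protease. In mammary tumours cathepsins are known both from the cancer cells and from macrophages and fibroblasts of the stroma, and when secreted they can degrade matrix proteins.

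Ctsk and Ctss lie next to each other on the same strand of chromosome 3, with the long noncoding gene Gm40096 between them, and Ctsk is the member whose values chose the group. The 250 bases before the start site of both genes are shown for that reason, and those of Ctsd because they hold the most copies of a motif bound by the lysosome regulators TFEB and MITF. The sequences are those of RefSeq on build GRCm38.p6, at chr3:95498960-95499209 on the plus strand for Ctsk, chr3:95526536-95526785 on the plus strand for Ctss and chr7:142387828-142388077 on the minus strand for Ctsd. Each is written 5′ to 3′ on the strand of its gene, and capitals mark GAGGAA, a core of PU.1-type sites, or CACGTG, the E-box core, on either strand.
Ctsk promoter: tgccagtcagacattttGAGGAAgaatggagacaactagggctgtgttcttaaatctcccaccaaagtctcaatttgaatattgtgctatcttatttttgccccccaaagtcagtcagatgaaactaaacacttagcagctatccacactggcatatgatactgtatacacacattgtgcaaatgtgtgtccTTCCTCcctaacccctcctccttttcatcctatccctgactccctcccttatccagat
Ctss promoter: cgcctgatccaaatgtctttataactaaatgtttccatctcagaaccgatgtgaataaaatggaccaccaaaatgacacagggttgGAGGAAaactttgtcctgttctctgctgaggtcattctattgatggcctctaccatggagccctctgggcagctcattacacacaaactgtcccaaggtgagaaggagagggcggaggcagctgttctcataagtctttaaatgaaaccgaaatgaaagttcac
Ctsd promoter: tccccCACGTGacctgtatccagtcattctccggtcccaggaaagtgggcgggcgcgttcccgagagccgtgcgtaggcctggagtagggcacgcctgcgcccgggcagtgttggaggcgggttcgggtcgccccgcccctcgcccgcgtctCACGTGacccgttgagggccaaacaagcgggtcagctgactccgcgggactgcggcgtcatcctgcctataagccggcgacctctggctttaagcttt
RefSeq promoters were found for 7 of the 10 genes (Ctsk, Ctss, Ctsl, Ctsd, Ctsz, Ctsc and Ctso). CACGTG stood 2 times in the Ctsd window, from 245 to 240 and from 98 to 93 bases before the start, and 1 time in that of Ctsl, from 236 to 231 bases before it. The E-box core was held by 6.02% of all 32851 promoter windows of this length. The GAGGAA word stood 2 times in Ctsk (233 to 228 and 58 to 53 bases before the start), 1 time in Ctss and 2 times in Ctsc (196 to 191 and 149 to 144), and 23.3% of all windows held it. The E-box variant CATGTG, which 12.3% of all windows held, and the AP-1 motif TGANTCA, which 6.75% held, matched none of the 7. None of the motif words overlapped another, and a match is a description of the letters only.

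Between 68.9% and 83.9% of spots on FGFR1 KO arrays, and between 43.9% and 69.2% on WT arrays, had red signal well above background. A block of 240 rows by 82 columns, from row 97 and column 83 on, held negative control spots that were bright on some arrays and is called the bright area here. Over the whole block their median red signal was 35.5 on WT 1 and 41 on WT 3, but 6.25 on WT 2, 6 on WT 4 and 0 to 6 on the FGFR1 KO arrays. Of the tested probes there, 62.9% had a difference, FGFR1 KO minus WT, below 0, against 40.1% elsewhere. The genotypes shared a slide but lay in different rows of it, and the effects of row and genotype cannot be told apart. WT 2 was the least typical array (mean r to the rest 0.379), with a median of 8.57 over 11 skeletal muscle markers and a median of -0.20 over 12 luminal epithelial markers. The same luminal markers had medians of 1.502 on WT 1, 2.27 on WT 3 and 2.87 on WT 4, and of 2.44 to 3.16 on the FGFR1 KO arrays, so WT 1 and WT 3 were also below every FGFR1 KO array. Fgfr1 itself, the targeted gene, differed by 0.00 ± 0.12 (SE) at the probe A_55_P1967015, by -0.10 ± 0.41 at A_55_P1967022 and by -0.49 ± 0.66 at A_55_P2057777. Whether the probes lie in the floxed part was not analysed here, so they do not check the labels.

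All 11 cathepsin probes passed the filter, which asked for red signal well above background on at least 4 of the 8 arrays. The difference was below 0 at 9 of the 11, where 47.6% of all 39853 tested probes were below 0. Values of the genotypes did not overlap for Ctsk and Ctso, both of which had every FGFR1 KO array below every WT array. This held for 2.69% of the 39197 probes with a value on all arrays and for 6.05% of the 12758 such probes in the bright area. The limma fit called 0.0100% of probes in all, which are 4 probes with no gene name, at an adjusted p under 0.05 (Benjamini-Hochberg). None of the 4 is a cathepsin, and all 4 lie in the bright area. Of the cathepsins, 4 probes (Ctsk, Ctss, Ctsl and Ctso) lie in the bright area and 7 lie outside it, of which 5 were below 0. With this contrast behind the choice of Ctsk, the counts only describe the group.

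**Figure D1:**
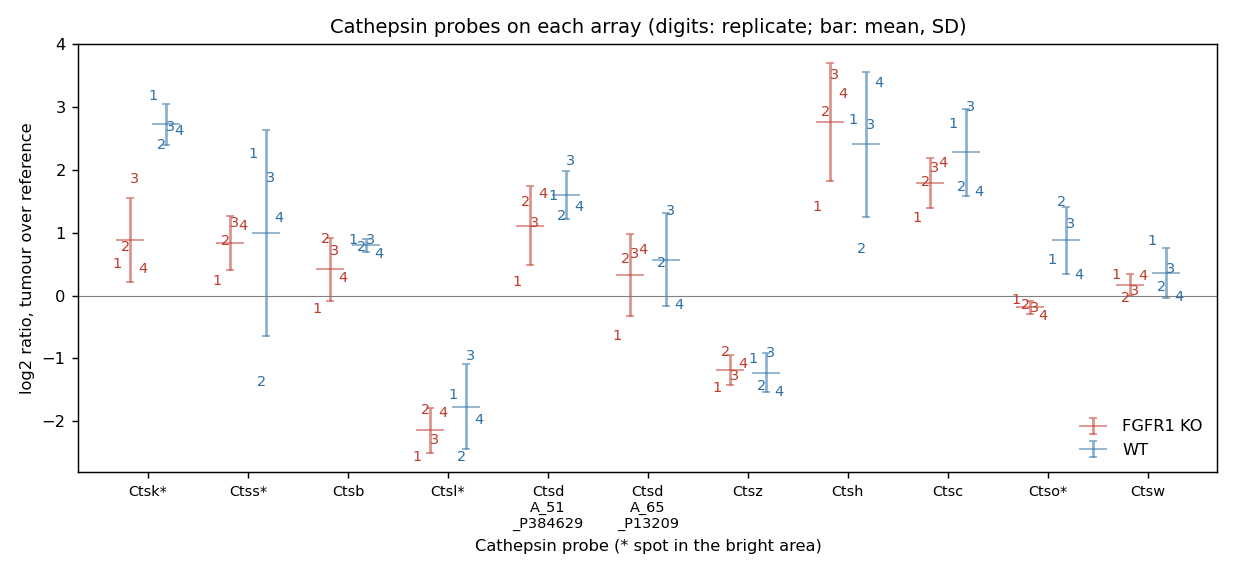
Log2 ratio of tumour to reference for the 11 cathepsin probes, with each array drawn as its replicate number (red for FGFR1 KO, blue for WT) and bars for the mean ± SD of each genotype. Ctsk and Ctso are the probes whose FGFR1 KO and WT values do not overlap, and WT 2 lies far below the other WT arrays for Ctss and Ctsh.

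Ctsk, cathepsin K, is the strongest collagen-degrading cathepsin, known from osteoclasts and also made by activated fibroblasts and macrophages. Its probe A_55_P1961335 (NM_007802) read 0.50, 0.78, 1.86 and 0.42 on FGFR1 KO 1 to 4 and 3.18, 2.40, 2.69 and 2.63 on WT 1 to 4. The WT arrays lay close together, and FGFR1 KO 3 was the KO array nearest to them. The difference was -1.84 ± 0.33 (SE, n = 4 per group), with a 95% confidence interval from -2.58 to -1.10, or 3.57-fold higher in WT. Without FGFR1 KO 3 it was -2.16, the value farthest from 0 of the 8 fits that each left out 1 array. In these bulk samples fewer cells that express a gene and less of its RNA per cell cannot be told apart.

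Ctsk was a dim spot on the FGFR1 KO arrays. Its red signal above local background was 95, 46.5, 170.5 and 80 intensity units on FGFR1 KO 1 to 4 and 1289.5, 396, 762 and 471.5 on WT 1 to 4. Its green signal, in the channel of the reference RNA, was also higher on WT arrays, at 130.5 to 182 against 67.5 to 100. Green signal of nearby negative controls, given below, was higher on WT arrays too. After normalization within and between arrays, the mean red level differed by -2.34 and the mean green level by -0.51 on the log2 scale, so both channels were lower on FGFR1 KO arrays and red by more.

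The spot of Ctsk, at row 194 and column 162, is in the bright area. The 6 negative control spots within 25 rows and columns of it had median red signals of 140.5, 21.75, 53.25 and 233.5 on WT 1 to 4 and of -2.25 to 4.5 on FGFR1 KO arrays. These red signals were below that of Ctsk on each WT array. The same controls had median green signals of 68.25, 25.5, 44.75 and 91.5 on WT 1 to 4. On FGFR1 KO arrays their green medians were 16.75 to 23. What part of the green signal of Ctsk comes from the reference RNA was not tested. Of the 64 tested probes within 5 rows and columns, 57 had a difference below 0, their median was -0.61, and 1 was lower than Ctsk. Of these 64, 2 are among the 4 probes called over the whole array, at 1 and 3 rows from Ctsk. With the floor of the neighbouring spots as background, in place of the scanner's local background, Ctsk differed by -1.91 ± 0.35. With the median of the neighbouring probes taken off on each array, it differed by -0.94 ± 0.32. What part of the difference comes with the position on the array was not tested beyond these values.

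**Figure D2:**
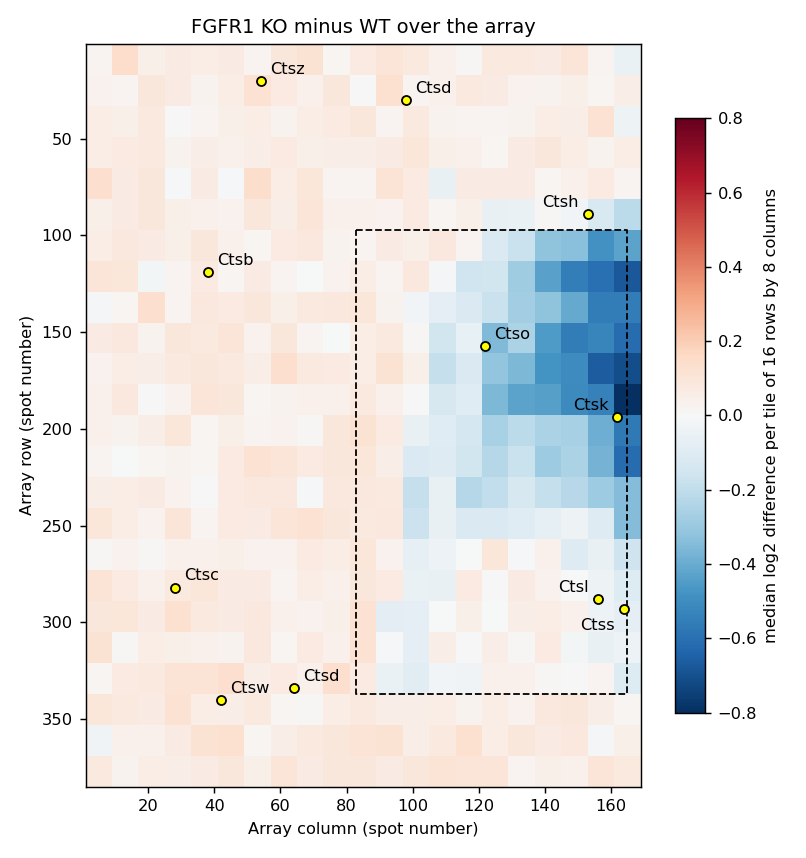
Median FGFR1 KO minus WT difference (log2) of tested probes in tiles of 16 rows by 8 columns of the array, with the bright area dashed and the cathepsin spots in yellow. Ctsk and Ctso lie in tiles whose medians are clearly below 0, Ctsl and Ctss lie in the bright area where tiles are near 0, and the other 7 spots lie outside it.

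Ctss, cathepsin S, trims the invariant chain in antigen-presenting cells and stays active at neutral pH. Its probe A_55_P2024888 (NM_001267695) read 0.23, 0.86, 1.16 and 1.11 on FGFR1 KO 1 to 4 and 2.25, -1.37, 1.87 and 1.23 on WT 1 to 4. Of the WT arrays 3 lay above every FGFR1 KO array, and WT 2 lay below them all. The difference was -0.16 ± 0.70 (SE), with an interval from -1.75 to 1.44, and without WT 2 it was -0.95 ± 0.30. Ctss therefore has no settled direction in these data. Its chromosomal neighbour Ctsk, chosen for being lower on the FGFR1 KO arrays, read higher on WT 2 than on any of them. The Ctss spot is in the bright area. The 7 negative controls within 25 rows and columns had median red signals of 92, 5, 23.5 and 6 on WT 1 to 4. On FGFR1 KO arrays these were -0.5 to 8.5. The 47 tested probes around Ctss had a median difference of -0.13. With their median taken off Ctss differed by 0.03 ± 0.63.

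Ctsb, cathepsin B, cuts within proteins and also removes dipeptides from carboxyl ends. It read -0.22, 0.90, 0.71 and 0.28 on FGFR1 KO 1 to 4 and 0.88, 0.77, 0.89 and 0.67 on WT 1 to 4 at the probe A_51_P465148. FGFR1 KO 2 was above every WT array, and FGFR1 KO 1 was the lowest of all. The difference was -0.38 ± 0.24 (SE), with an interval from -0.92 to 0.16, and without FGFR1 KO 1 it was -0.17 ± 0.18. The probe is outside the bright area and bright, with red signals of 5165 to 12418.5 units over the 8 arrays.

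Ctsl, cathepsin L, is a broad lysosomal endopeptidase. Its probe A_51_P253547 read -2.57, -1.83, -2.30 and -1.87 on FGFR1 KO 1 to 4 and -1.58, -2.57, -0.96 and -1.97 on WT 1 to 4. WT 2 and FGFR1 KO 1 were about equally low, and WT 1 and WT 3 were above every FGFR1 KO array. The difference was -0.37 ± 0.33 (SE), with an interval from -1.13 to 0.39. The spot lies in the bright area. The 8 negative controls within 25 rows and columns had median red signals of 90.5, 5.25, 23.25 and 3 on WT 1 to 4. On FGFR1 KO arrays these were -0.75 to 9. The tested probes around Ctsl had a median difference of -0.03. The difference of Ctsl was -0.64 ± 0.28 without WT 2 and -0.10 ± 0.29 without WT 3.

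Ctsd, cathepsin D, is the aspartic endopeptidase of the lysosome and a protein long measured in breast cancer. At the probe A_51_P384629 it read 0.21, 1.48, 1.15 and 1.61 on FGFR1 KO 1 to 4 and 1.58, 1.27, 2.15 and 1.41 on WT 1 to 4. FGFR1 KO 1 was the lowest array and WT 3 the highest, while the other 6 arrays were mixed. The difference was -0.49 ± 0.33 (SE), with an interval from -1.23 to 0.25, and without FGFR1 KO 1 it was -0.19 ± 0.24. The other probe, A_65_P13209, had no value on WT 1, whose spot was marked as an outlier and left out of the fit. It read -0.65, 0.58, 0.67 and 0.73 on FGFR1 KO 1 to 4 and 0.52, 1.35 and -0.14 on WT 2 to 4, again lowest on FGFR1 KO 1. Its difference was -0.24 ± 0.44 (SE, n = 4 and 3), and without FGFR1 KO 1 it was 0.08 ± 0.36. Both differences were thus closer to 0 or above it without FGFR1 KO 1, and their values correlated at r = 0.866 over the 7 arrays they share.

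Ctsz, cathepsin X, removes single residues from carboxyl ends. Its probe A_51_P256202 read -1.47, -0.90, -1.28 and -1.09 on FGFR1 KO 1 to 4 and -1.01, -1.44, -0.92 and -1.54 on WT 1 to 4. The ranges of the genotypes nearly coincided, and no array stood out. The difference was 0.04 ± 0.20 (SE), and its interval from -0.41 to 0.49 was the narrowest of the 11 probes.

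Ctsh, cathepsin H, is an aminopeptidase. It read 1.41, 2.92, 3.52 and 3.20 on FGFR1 KO 1 to 4 and 2.79, 0.74, 2.71 and 3.39 on WT 1 to 4 at the probe A_52_P51078. FGFR1 KO 1 and WT 2 were each far below the other arrays of their genotype. The difference of 0.35 ± 0.62 (SE) was the highest of the group, with an interval from -1.06 to 1.76, but it was -0.21 without WT 2 and 0.80 without FGFR1 KO 1.

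Ctsc, cathepsin C or dipeptidyl peptidase I, activates the serine proteases of mast cell, neutrophil and cytotoxic granules. Its probe A_52_P195839 read 1.23, 1.82, 2.03 and 2.12 on FGFR1 KO 1 to 4 and 2.72, 1.73, 3.01 and 1.65 on WT 1 to 4. WT 1 and WT 3 lay above all FGFR1 KO arrays, and WT 2 and WT 4 lay among them. The difference was -0.48 ± 0.35 (SE), with an interval from -1.27 to 0.31, and it was -0.24 ± 0.32 without WT 3 and -0.29 ± 0.36 without FGFR1 KO 1.

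Ctso, cathepsin O, is a cysteine protease with few known substrates. Its probe A_55_P2012241 (NM_177662) read -0.07, -0.16, -0.20 and -0.33 on FGFR1 KO 1 to 4 and 0.57, 1.49, 1.14 and 0.32 on WT 1 to 4. The FGFR1 KO arrays were close together below 0, and all WT arrays were above 0. The difference was -1.07 ± 0.25 (SE), with an interval from -1.63 to -0.50, or 2.09-fold higher in WT. The signal was low, with red signals of 17.5 to 82.5 units on FGFR1 KO and 99.5 to 257 on WT arrays, and it was well above background on 3 of 4 arrays in each genotype.

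The Ctso spot, at row 157 and column 122, is also in the bright area. The 14 negative controls within 25 rows and columns had median red signals of 53.75, 127.5, 140 and 7.25 on WT 1 to 4 and of 0 to 6 on FGFR1 KO arrays. WT 2 and WT 3, where these controls were brightest, were also the arrays where Ctso read highest. Of 88 tested probes around it 70 were below 0, with a median of -0.30, and 6 were lower than Ctso. With the floor of the neighbouring spots as background the difference was -0.88 ± 0.25, and with the neighbours' median taken off it was -0.67 ± 0.14. The part of the position in this difference was not tested beyond these values.

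Ctsw, cathepsin W, is known from cytotoxic T cells and NK cells. It read 0.32, -0.04, 0.08 and 0.30 on FGFR1 KO 1 to 4 and 0.88, 0.13, 0.43 and -0.03 on WT 1 to 4 at the probe A_55_P2021981. WT 1 and WT 3 were above every FGFR1 KO array, and WT 2 and WT 4 were among them. The difference was -0.19 ± 0.21 (SE), with an interval from -0.67 to 0.29, and it was -0.01 ± 0.18 without WT 1 and -0.32 ± 0.21 without WT 4.

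**Figure D3:**
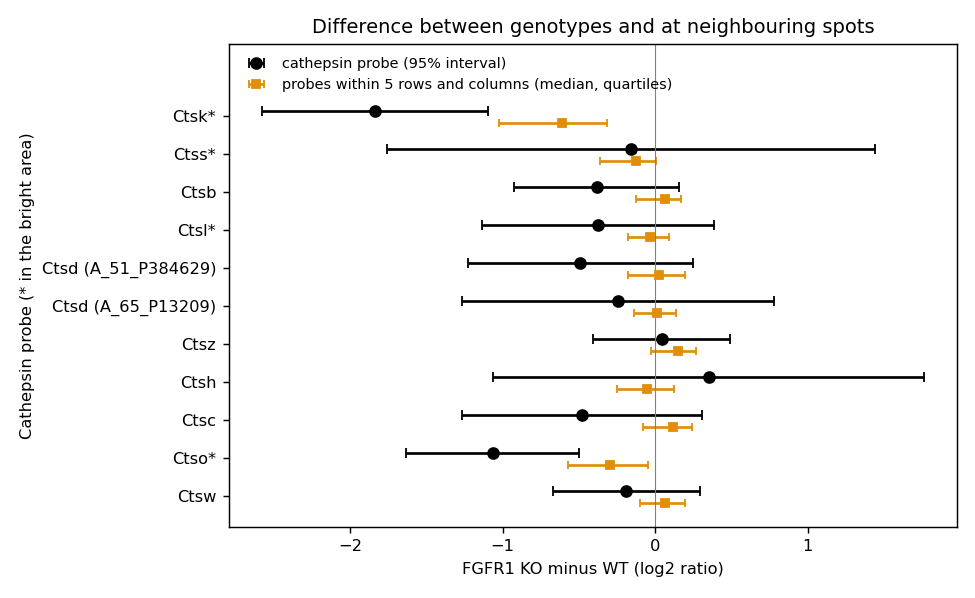
FGFR1 KO minus WT (log2) for each cathepsin probe with its 95% confidence interval in black, and the median and quartiles of the tested probes within 5 rows and columns of its spot in orange. The intervals of Ctsk (-2.58 to -1.10) and Ctso (-1.63 to -0.50) lie below 0, and the neighbours of these spots have medians of -0.61 and -0.30. The intervals are not adjusted for the number of probes, and 3381 of 39853 tested probes had an unadjusted limma p under 0.05. The group was chosen on these values, through Ctsk, so none of the intervals carries a test.

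Within each genotype, single arrays were low or high for many of the cathepsins at once. FGFR1 KO 1 was the lowest FGFR1 KO array for 8 of the 11 probes, all but Ctsk, Ctso and Ctsw, where it was the lowest for 30.6% of the 39197 probes with a value on all arrays. WT 3 was the highest WT array for 6 of the 11 probes, where it was the highest for 22.0% of all probes. WT 2 was the lowest WT array for 5 of the 11, with 31.8% of all probes, and WT 4 for 6, with 20.1%. These counts are descriptions, as the probes share their arrays.

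The 8 named genes whose values ran closest to those of Ctsk over the 8 arrays, of 15187 candidates, were Psmc3ip (Pearson r = 0.978), Lum (0.976), Serping1 (0.970), Ino80 (0.962), Hal (0.961), Mfsd5 (0.960), Dhx40 (0.960) and Col6a1 (0.959). Lum encodes lumican, a proteoglycan of collagen fibrils, Col6a1 a chain of collagen VI and Serping1 the C1 esterase inhibitor. Of the 8, 3 (Psmc3ip, Hal and Mfsd5) are in the bright area, where 33.7% of the candidates lie. Because Ctsk separates the genotypes, these coefficients mainly rank genes that do so too, and they are given as a measure of likeness with no test. For Ctss the closest were Ms4a6c (r = 0.988), Pdia4 (0.977), Ms4a7 (0.971), Stard3nl (0.964), Tns3 (0.963), Grn (0.963), Cyba (0.963) and Bcl2a1d (0.961). Ms4a6c and Ms4a7 encode membrane proteins known from macrophages, Grn encodes progranulin and Cyba a subunit of the phagocyte NADPH oxidase. With the arrays WT 1 and WT 2 left out, the coefficients of Grn, Cyba and Bcl2a1d with Ctss were 0.771, 0.819 and 0.850, and the other 5 stayed at 0.907 to 0.986.

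The wider cathepsin system was described by gene lists, each gene by its brightest probe, and the limma fit called none of the 16806 genes so represented. At an unadjusted p under 0.05 there were 803 genes lower and 521 higher in FGFR1 KO, and the median of all genes was -0.0027. Of 13 tested cathepsin inhibitors 9 were below 0, with a median of -0.50, and 6 were lower and 0 higher at the unadjusted threshold. With no filter on dim probes the median of the inhibitors was -0.07. Cst7, cystatin F, which restrains cathepsins of immune cells, differed by -1.56 ± 0.26 (SE, limma adjusted p = 0.133). Its red signal was well above background on 3 FGFR1 KO and 3 WT arrays. Serpinb6a, an intracellular protease inhibitor, differed by -1.32 ± 0.32 (limma adjusted p = 0.34). Cst3, cystatin C, the main secreted cathepsin inhibitor, differed by -1.10 ± 0.38 (limma adjusted p = 0.496), and Cst6, cystatin M, by -1.72 ± 0.65 (limma adjusted p = 0.534). These 4 inhibitors lie in the bright area, while the other 2 below the unadjusted threshold, Ctla2a (-0.93 ± 0.34) and Ctla2b (-0.69 ± 0.26), which were named after their values were seen, lie outside it. With that area left out the median of the 8 remaining inhibitors was -0.06. Cstb, the cytosolic cystatin B, lies outside it and differed by 0.13 ± 0.36.

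The other genes of the lysosome were split between lower and higher values. Of 30 tested hydrolases and activators 16 were below 0, with a median of -0.01. The limma fit called none of them, with 4 lower and 1 higher at the unadjusted threshold. Hexa, a subunit of hexosaminidase, differed by -0.91 ± 0.29 (limma adjusted p = 0.457), and Lgmn, the legumain that processes several procathepsins, by -0.51 ± 0.26 (limma adjusted p = 0.625). Asah1, acid ceramidase, differed by -0.48 ± 0.15 (limma adjusted p = 0.452) at its brightest probe, in the bright area, and by 0.0043 ± 0.24 at another outside it, so its probes disagree. Of 21 membrane and proton pump genes 11 were below 0, with a median of -0.04. Sidt2, a membrane protein of the lysosome, differed by 0.90 ± 0.37 (limma adjusted p = 0.567), and Ostm1, partner of its chloride transporter, by -0.45 ± 0.20 (limma adjusted p = 0.598).

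Of 9 genes that sort enzymes to the lysosome 6 were below 0, with a median of -0.13, and with the bright area left out 1 of 4 was below 0, with a median of 0.26. Gnptab, a subunit of the enzyme that makes the mannose 6-phosphate tag, differed by -0.65 ± 0.21 (limma adjusted p = 0.457) and the adaptor Gga1 by -0.40 ± 0.24 (limma adjusted p = 0.672), both in the bright area. Of the 4 tested transcription factors of lysosomal genes, Tfeb differed by -0.74 ± 0.38 (limma adjusted p = 0.633) and Zkscan3, a repressor, by -0.39 ± 0.20 (limma adjusted p = 0.633), both in the bright area. Mitf differed by 0.02 ± 0.19 at its brightest probe and by -0.72 ± 0.34 at another in the bright area, so its probes disagree too. Zkscan3 has another probe outside that area, which differed by 0.07 ± 0.22, and with the area left out 0 of 3 of these factors were below 0, with a median of 0.07. Of the promoters printed above, that of Ctsd holds the E-box core bound by TFEB and MITF, with no test of their binding here.

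The substrates and partners of single cathepsins were described beside them. Of 8 tested genes of matrix proteins that cathepsin K can cleave 7 were below 0, with a median of -1.21, all of them outside the bright area. None was called by limma and 4 were lower at the unadjusted threshold, where Col1a2, a chain of collagen I, differed by -1.65 ± 0.53 (limma adjusted p = 0.456) and Dcn, decorin, by -2.22 ± 0.78 (limma adjusted p = 0.496). These 4 (Col1a1, Col1a2, Col3a1 and Dcn) are also in the list of fibroblast markers, by the same probes, so the lists are not separate evidence. Of 9 genes of MHC class II processing, the pathway of Ctss, 5 were below 0, with a median of -0.26, and limma called none, with 0 lower and 0 higher at the unadjusted threshold. Cd74, the invariant chain itself, differed by -0.66 ± 0.63 (limma adjusted p = 0.778), H2-DMa by -0.70 ± 0.38 (limma adjusted p = 0.648) and H2-Aa by -1.06 ± 1.02 (limma adjusted p = 0.778).

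Of 9 tested granule proteases that Ctsc activates 6 were below 0, with a median of -0.16. Mcpt4 and Cma1, chymases of mast cells, had the lowest differences, at -2.10 ± 0.41 (limma adjusted p = 0.202) and -1.19 ± 0.30 (limma adjusted p = 0.351). Mcpt4 lies in the bright area and Cma1 does not. Of 7 tested cathepsins outside the group 3 were below 0, with a median of 0.05, and limma called none of them, with 0 at the unadjusted threshold. Among them Ctsr differed by 1.36 ± 1.06, with FGFR1 KO 3 at 5.26 and the other arrays from -0.25 to 1.12, and Ctsm by 0.28 ± 0.24. Red signal was well above background on 3 FGFR1 KO arrays and 1 WT array for Ctsr, and on 4 and 2 for Ctsm. Their filter was thus passed mainly through the FGFR1 KO arrays. Both are cathepsins known from the rodent placenta.

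Markers of the cells that make cathepsins were set beside the members. All 14 fibroblast markers were below 0, with a median of -1.41, and their medians per array ran from -1.63 to -0.52 on FGFR1 KO and from -0.11 to 0.20 on WT arrays. They did not overlap between genotypes, as was the case for Ctsk, and the adipocyte and mast cell medians did not overlap either. None of the 14 was called by limma, and 12 were lower at the unadjusted threshold. Lum differed by -2.19 ± 0.44 (limma adjusted p = 0.214) outside the bright area and Dpt, dermatopontin, by -2.24 ± 0.48 (limma adjusted p = 0.245) inside it. With probes outside that area alone, 11 of the markers had a value, all of them below 0, with a median of -1.65. All 10 adipocyte markers were below 0 too, with a median of -1.66, and limma called none, with 4 lower at the unadjusted threshold. Their medians per array were 0.07 to 0.34 on FGFR1 KO arrays, 2.54 on WT 1, 3.79 on WT 2, 0.43 on WT 3 and 0.41 on WT 4, and without WT 1 and WT 2 the median difference was -0.26. Of 10 endothelial markers 9 were below 0, with a median of -0.33, and limma called none, with 1 lower at the unadjusted threshold. Their medians per array overlapped, at 0.38 to 0.74 on FGFR1 KO and 0.54 to 1.22 on WT arrays. The part of these cell types in the Ctsk difference was not tested.

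Markers of osteoclasts, the cells best known for Ctsk, had medians per array that overlapped between the genotypes. Of 10 such genes 7 were tested (not Calcr, Mmp9 and Atp6v0d2), their medians per array ran from -0.02 to 0.07 on FGFR1 KO and from -0.06 to 0.26 on WT arrays. Of the 7, 4 were below 0 and 3 above, and limma called none, with 0 lower and 1 higher at the unadjusted threshold. Tnfrsf11a, the receptor RANK, differed by 0.83 ± 0.34 (limma adjusted p = 0.562), Oscar, an osteoclast receptor, by 0.33 ± 0.15 (limma adjusted p = 0.607) in the bright area, and Acp5, the acid phosphatase of osteoclasts and macrophages, by -0.44 ± 0.31 (limma adjusted p = 0.717). All 18 macrophage markers were tested, 12 were below 0 with a median of -0.19, and limma called none, with 3 lower and 1 higher at the unadjusted threshold. Their medians per array ran from 0.19 to 0.51 on FGFR1 KO and from 0.12 on WT 2 to 0.92 on WT 3, and Ctss too was lowest on WT 2 among all arrays. Mrc1, the mannose receptor, differed by -1.41 ± 0.43 (limma adjusted p = 0.442) and Cd163, the haemoglobin scavenger receptor, by -0.72 ± 0.21 (limma adjusted p = 0.439). Csf1r, the receptor for the macrophage growth factor, and Cd68 differed by -0.25 ± 0.22 and -0.15 ± 0.20. The part of macrophage content in the cathepsin values was not tested.

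Markers of T and NK cells, the cells known for Ctsw, had medians of -0.16 to 0.02 on FGFR1 KO and -0.05 to 0.28 on WT arrays over 14 tested genes. WT 1 had the highest median, and Ctsw was also highest there. The other WT arrays did not share this order. The median was next highest on WT 4, at 0.18, where Ctsw was lowest among WT arrays. On WT 3 the median was -0.02, and Ctsw read 0.43. The 6 tested B cell markers had a median of 2.20 on WT 1 and of -0.41 to -0.07 on the other arrays. The 5 tested mast cell markers, which share Mcpt4 and Cma1 with the granule proteases, had medians of -0.09 to 0.13 on FGFR1 KO and 0.65 to 1.82 on WT arrays, and Ctsc overlapped between the genotypes. With probes outside the bright area alone, 3 mast cell markers had a value and their median difference was -0.21. The part of these cells in the values was not tested.

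**Figure D4:**
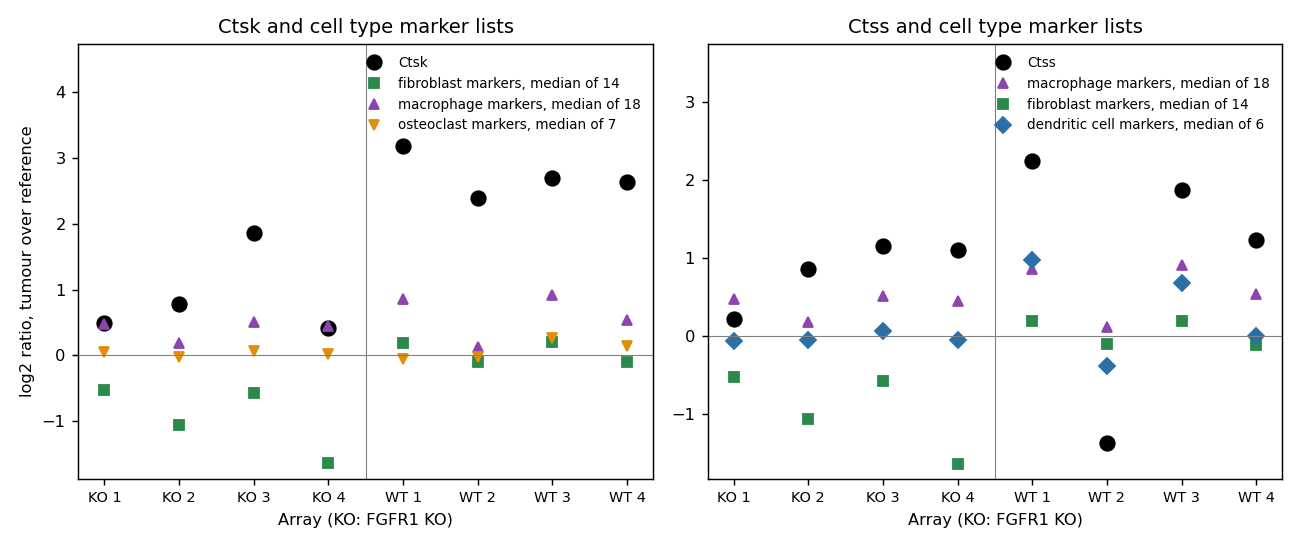
Log2 ratio of Ctsk (left) and Ctss (right) on each array with the medians of cell type marker lists. Ctsk and the fibroblast medians do not overlap between genotypes, with FGFR1 KO below WT, and Ctss and the macrophage median are lowest among WT arrays on WT 2.

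Ctsk, Ctso and Ctss were followed through the processing choices, since they gave the largest differences or the widest spread. Ctsk was below 0 in all 20 alternative fits that gave it a value, from -2.54 with red signal alone to -0.94 with the neighbours' median taken off. The fits reuse the same arrays and Ctsk was chosen for being lower on them, so this count is no support for its direction. Ctso was below 0 in all 19 that gave it a value, from -1.29 to -0.67. Ctss was below 0 in 14 of 20, from -0.95 to 0.26, and its direction changed with the array left out. No alternative that leaves out the bright area can give a value for these genes, as each has its probe there.

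**Figure D5:**
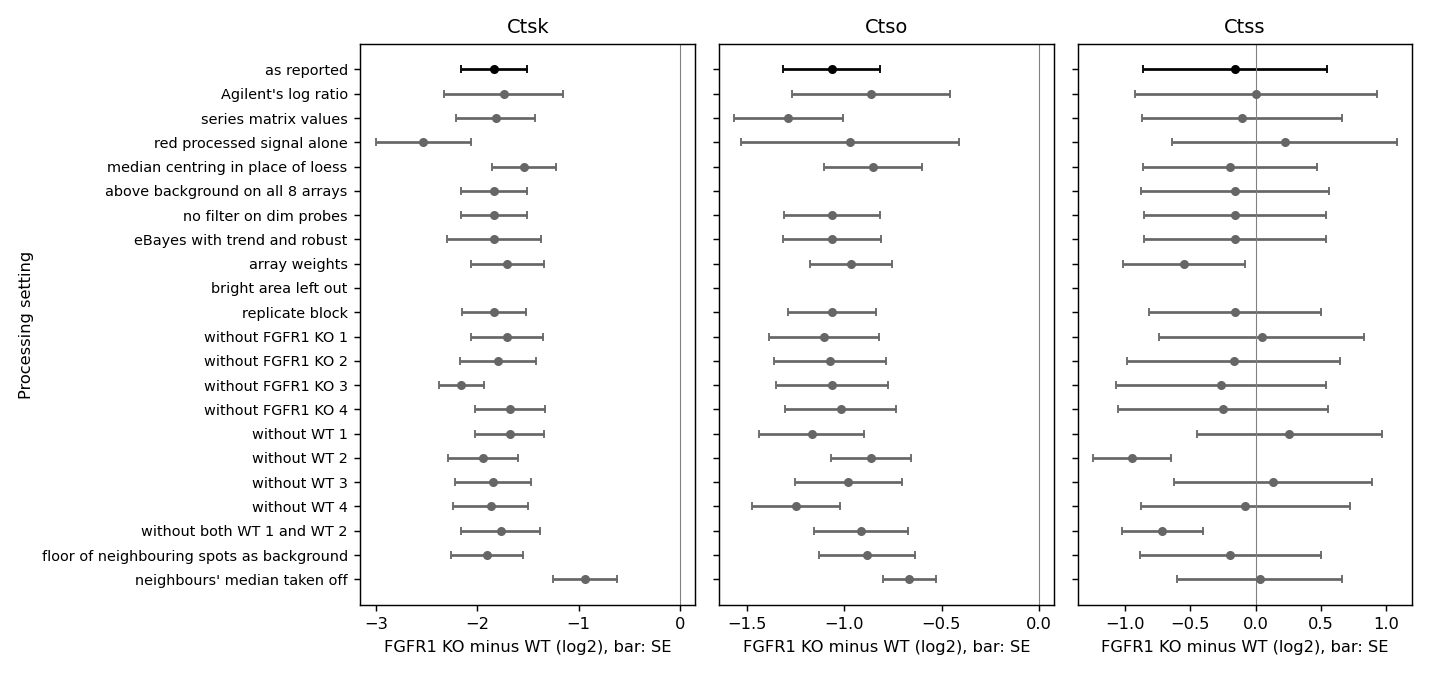
FGFR1 KO minus WT (log2, with SE) of Ctsk, Ctso and Ctss as reported (black) and under each alternative processing (grey). Ctsk and Ctso stay below 0 in each setting with a value, and Ctss crosses 0 as single arrays are left out. The settings reuse the same arrays, on which Ctsk was chosen for being lower.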

How the data were processed

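Spots of a design for mouse build mm9 were quantified by Agilent Feature Extraction 11.0.1.1, per the file headers. The deposited scanner files hold median spot and background intensity on a linear scale, processed intensity after background subtraction, detrending and dye normalization, and a log10 ratio of both processed signals, red over green. The series matrix deposited by the authors was read as log2 red over green, since Ctsk differed by -1.82 in it and by -1.84 here. Its values correlated at 0.985 to 0.991 with those computed here. Its column medians were 0.0152, -0.0155, -0.00112 and 0.00458 on FGFR1 KO 1 to 4, then -0.00481, -0.00181, -0.00562 and 0.00171 on the WT arrays in order, and its normalization and centring are not given in the sources used here. Per the labels' protocols, tumour RNA carried the red Alexa dye and Universal Human Reference RNA the green one, although the label field names cy3 alone. Within groups the median SD over probes was lower in green (0.164 and 0.188) than in red (0.269 and 0.367).

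In R 4.3.3 with limma 3.58.1, median signals were background-corrected by normexp with an offset of 50 and normalized by loess within arrays, with control and outlier spots at weight 0 and then left out. Probes with red signal well above background on 4 or more arrays and at least 3 values per group were tested by lmFit and eBayes, two-sided, with Benjamini-Hochberg adjustment over 39853 probes. These p-values set the difference between the genotypes against the spread of samples within them. The number of samples, 8, limits the precision. Probe accessions were named through an NCBI table of GRCm38.p6, which named 28331 probes. The members and gene lists were chosen with earlier results of these data known. The genes named are all members, up to 2 of each list with the smallest p, genes tied to a member by their role, and the 8 closest to Ctsk and to Ctss in pattern. Samples of the same replicate number were not treated as pairs, as their deviations from the group means correlated at -0.039, 0.011, 0.109 and -0.106. Such values show no strong shared signal but cannot exclude a pairing. The bright area is the rectangle that spans, on a grid of 8 by 8 blocks, those where 20% or more of the negative controls were over 50 red units on some array. Alternatives covered the background, normalization, filter, fit, bright area and arrays left out. The fit was checked on simulated arrays.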

Additional observations from a re-analysis of the deposited data

Results flagged for a closer look

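Single arrays were compared with the others of their genotype by Dixon's test, which flags about 1 in 20 groups of 4 by chance, and 6 of 76 groups were past its limit. Among the cathepsins this was Ctsd at the probe A_65_P13209, where FGFR1 KO 1 read -0.65 and the nearest FGFR1 KO array 0.58. Among the inhibitors, Cst7 read -0.30 on WT 3 with the nearest WT array at 0.59, and Cstb read -1.90 on WT 2 with the nearest at -0.70. The chymase gene Cma1 read 1.82 on WT 1 with the nearest WT array at 0.84. Ostm1 read -0.041 on WT 3 with the nearest at 0.68, and Mitf at the probe A_55_P2152437 read 0.28 on WT 2 with the nearest at -0.37.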

How the results depend on the processing

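The count of 4 called probes was 0 with Agilent's log ratio, red signal alone, median centring, the filter on all 8 arrays, trend and robust variances, the bright area left out, WT 1 and WT 2 left out together, and with both settings on neighbouring spots, which were added after seeing the data. It was 139 with no filter, 11 with array weights, and 0 to 1 as each array was left out, with 1 without WT 4. With the replicate number as a block it was 0, although a pairing by these numbers is not known, and the block changed no call of a cathepsin. Ctsk differed by -2.54 with red signal alone, by -0.94 with the neighbours' median taken off, and by -2.16 to -1.68 with 1 array left out. Of the cathepsin probes 9 were below 0, which became 5 with the bright area left out (of 7 that remain) and 7 to 10 with 1 array left out. Genes called in the lists were 0 throughout. Leaving out the bright area gave no value for Ctsk, Ctss, Ctsl and Ctso. Dim signal limits Ctso and, on the FGFR1 KO arrays, Ctsk. The cause of these shifts was not tested.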
